A study of Mus musculus with 6 samples.

Results

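Transforming growth factor beta (TGF-beta) signalling was described here through 10 genes chosen by name: the ligands Tgfb1, Tgfb2 and Tgfb3, the receptors Tgfbr1, Tgfbr2 and Tgfbr3, and the intracellular proteins Smad2, Smad3, Smad4 and Smad7. All 10 were found among the 58609 genes of the transcript set, each as a protein-coding gene. The cells were GL261, an established mouse glioma line, harvested 4 h after treatment. One group received sodium chloride and the other sodium propionate, a salt of a fatty acid that gut microbes release, both at 1 uM as the labels give it. Total RNA gave 3 libraries per group. Those of chloride carry the numbers 1, 2 and 3 and those of propionate 1, 4 and 5, and the labels name no other difference between them. Whether the libraries of a group are separate cultures is not stated in the labels, so the p-values below speak of library-to-library spread alone, and that spread may be technical.

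TGF-beta ligands are secreted in a latent form, held by their own propeptide until integrins, proteases or thrombospondin release them. Released ligand binds the type II receptor Tgfbr2, which recruits and phosphorylates the type I receptor Tgfbr1, and Tgfbr1 then phosphorylates Smad2 and Smad3. These join Smad4 and act in the nucleus, where Smad7 is among the genes they induce, and the Smad7 protein in turn blocks the receptor. Tgfbr3 (betaglycan) is a co-receptor that presents ligand, Tgfb2 above all, to Tgfbr2. In gliomas the pathway is known for suppressing immune cells and for promoting invasion.

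Several of these genes make proteins of different length from the same locus, and 4 such choices could be read from the files, of which those of Tgfb2, Tgfbr1 and Tgfbr2 are printed and the exon of Smad2 is described by its values. The printed stretches are shown because the libraries differed more in them than in the total level of their genes. Each is given 5′ to 3′ on the strand of the gene, from GENCODE M21 transcripts of the mm10 build, with the alternative bases in capitals and the 24 transcript bases on each side in lower case. All lie in coding sequence and have a length divisible by 3.
Tgfb2: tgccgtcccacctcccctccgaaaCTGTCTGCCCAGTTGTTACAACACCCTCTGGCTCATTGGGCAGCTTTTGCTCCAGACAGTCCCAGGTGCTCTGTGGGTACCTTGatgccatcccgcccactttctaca
Tgfbr1: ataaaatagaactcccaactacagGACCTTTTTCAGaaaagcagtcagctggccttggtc
Tgfbr2: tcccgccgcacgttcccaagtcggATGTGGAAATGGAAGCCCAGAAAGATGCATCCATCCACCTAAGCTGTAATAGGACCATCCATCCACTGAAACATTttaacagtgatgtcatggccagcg
The Tgfb2 stretch is a cassette exon of 84 bases, exon 2 of 8 in the longer transcript (chr1:186690721-186690804, minus strand), and it lengthens the propeptide. The Tgfbr1 stretch is 12 bases added at the start of exon 3 of 9 by an upstream acceptor site (chr4:47393247-47393258, plus strand), in the part of the receptor just outside the membrane. The Tgfbr2 stretch is a cassette exon of 75 bases, exon 2 of 8 (chr9:116158271-116158345, minus strand), which adds to the outer part of the receptor near its N terminus.

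Levels are TPM, each library's relative transcript abundance corrected for transcript length, summed over the transcript models of a gene and scaled between libraries by a median ratio. Averaged over the 6 libraries, Smad4 was highest at 51.1 TPM, followed by Smad2 at 30.9 TPM and Tgfbr1 at 28.2 TPM. Smad4 lay above Smad2 in 6 of 6 libraries, while Smad2 lay above Tgfbr1 in 3 of 6 and their ranges overlapped. Smad7 came next at 20.6 TPM, below every library of Tgfbr1. Tgfb2 at 9.02 TPM, Smad3 at 7.93 TPM and Tgfbr2 at 7.71 TPM formed a group whose neighbours had overlapping ranges. Tgfb3 at 4.44 TPM and Tgfb1 at 1.48 TPM stood below them without overlap, and Tgfbr3 was listed at 0 in all 6 libraries. This order is that of summed TPM and differs by depth over coding exons, a measure described below. By that depth Smad2 (mean 57.2) and Smad4 (54.3) overlapped, and Smad2 lay above every library of Tgfbr1 (28.7). Tgfbr2 (12.8) then lay above every library of Tgfb2 (8.79) and Smad3 (6.16).

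**Figure D1:**
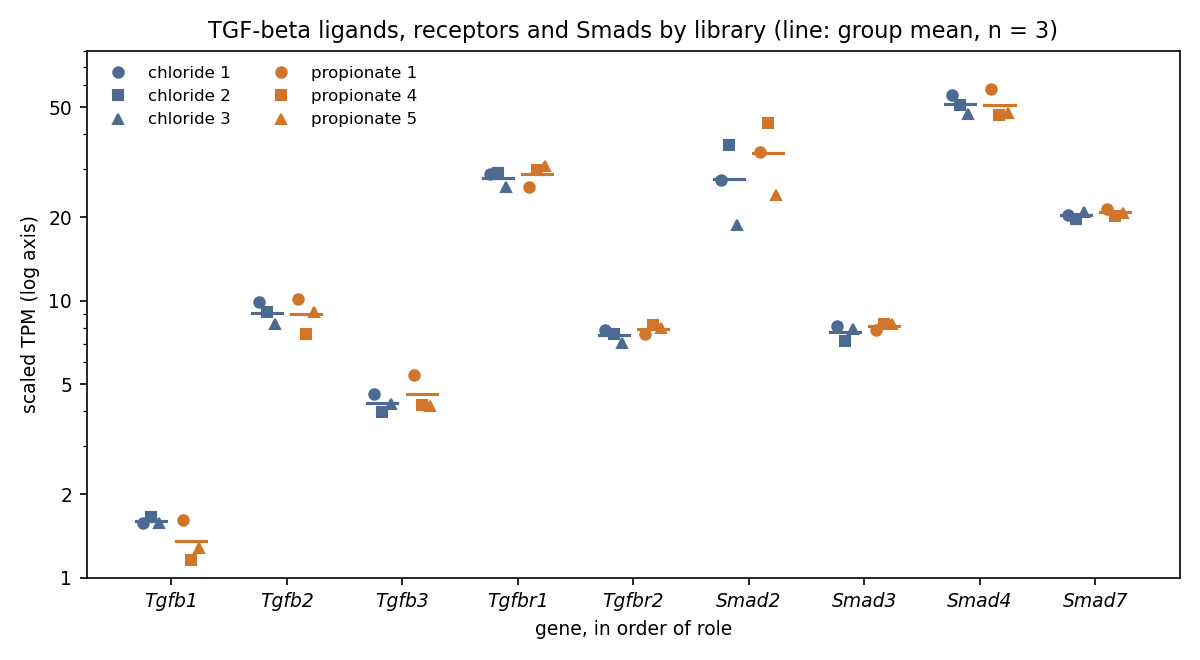
Scaled TPM (log axis) of the 9 detected genes in each of the 3 chloride and 3 propionate libraries, with a line at each group mean. Smad2 spreads from 18.8 to 43.7 TPM while Smad7 stays between 19.8 and 21.5 TPM, and the groups overlap for every gene. Tgfbr3, at 0 in every library, is not drawn.

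No member passed the test between the salts. Of the 10 genes, 9 passed the filter of a mean of at least 1 TPM and were tested with limma on log2(TPM + 1), and 0 passed an adjusted p of 0.05 (Benjamini-Hochberg over all 15567 genes tested). In the same test 0.00642% of all genes were called higher in propionate and 0% lower. Unadjusted p-values under 0.05 occurred in 0 of the 9 members and in 5.11% of all genes. By sign, 6 members were higher and 3 lower in propionate, with a median log2 difference of 0.04 against 0.0057 over all genes. None of the 9 had groups that did not overlap. Among all genes, 6.49% lay wholly lower and 5.27% wholly higher in propionate. The 95% interval of the difference, taken as a fold of TPM + 1, stayed within 1.5-fold in either direction for 8 of the 9, all but Smad2. Differences are on the log2(TPM + 1) scale, which understates those of low genes such as Tgfb1. In bulk RNA, fewer cells expressing a gene and less RNA per cell cannot be told apart.

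**Figure D2:**
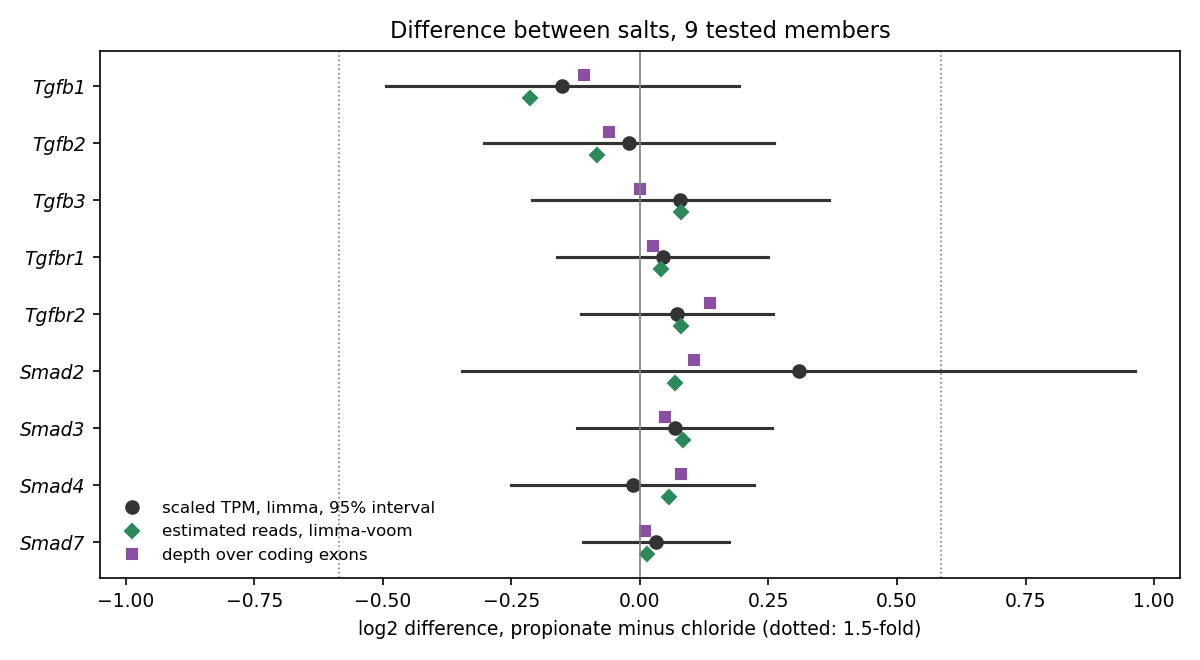
Log2 difference of each tested member, propionate minus chloride (x axis), from scaled TPM with its 95% limma interval (circles and lines), from estimated reads by limma-voom (diamonds) and from the depth over coding exons (squares). All 9 intervals include 0, and Smad2 has the widest, from -0.35 to 0.96.

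Tgfb2, on chromosome 1 (186622792 to 186705989, minus strand, ENSMUSG00000039239), had the highest level of the 3 TGF-beta ligands. Its level was 9.87, 9.09 and 8.26 TPM in chloride 1, 2 and 3 and 10.2, 7.58 and 9.13 TPM in propionate 1, 4 and 5. Propionate 1 was the highest library and propionate 4 the lowest, so that the propionate values enclosed those of chloride. The means were 9.07 ± 0.81 TPM (SD, n = 3) and 8.96 ± 1.30 TPM, a log2 difference of -0.02 (SE 0.12, limma adjusted p = 0.987). Tgfb2 made up 58.5% to 62.7% of the summed TPM of the 3 ligands in every library. That sum was 15.0 ± 1.02 TPM in chloride and 14.9 ± 2.15 TPM in propionate (SD, n = 3).

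Tgfb3, on chromosome 12 (86056745 to 86079041, minus strand, ENSMUSG00000021253), has a single transcript model in the set. It was measured at 4.62, 3.98 and 4.24 TPM in chloride and 5.42, 4.21 and 4.16 TPM in propionate, where library 1 stood above the rest. The log2 difference was 0.08 (SE 0.12, limma adjusted p = 0.941), and it was -0.02 without propionate 1. Tgfb1, on chromosome 7 (25687002 to 25705077, plus strand, ENSMUSG00000002603), is the isoform most studied in immune suppression. It was the lowest ligand, at 1.58, 1.66 and 1.58 TPM in chloride and 1.62, 1.16 and 1.28 TPM in propionate. Propionate 4 and 5 lay below every chloride library and propionate 1 among them. Between the salts the log2 difference was -0.15 (SE 0.15, limma adjusted p = 0.931) and rested on an estimated 121 to 153 reads per library.

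Within the ligands the share of Tgfb1 was 9.85%, 11.3% and 11.2% of the summed TPM in chloride and 9.40%, 8.99% and 8.79% in propionate. The groups did not overlap in this share, and the exact two-sided permutation p was 0.1, the smallest that 3 against 3 libraries allow. Counted by depth over coding exons, the share was 8.74%, 10.3% and 10.95% in chloride and 10.2%, 8.94% and 8.21% in propionate, and the groups overlapped (exact p = 0.4).

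The type I receptor Tgfbr1, on chromosome 4 (47353222 to 47414931, plus strand, ENSMUSG00000007613), was measured at 28.6, 28.9 and 25.8 TPM in chloride and 25.7, 29.6 and 30.8 TPM in propionate. Chloride 3 and propionate 1 were its lowest libraries, 1 in each group. The log2 difference was 0.04 (SE 0.09, limma adjusted p = 0.954). The type II receptor Tgfbr2, on chromosome 9 (116084293 to 116175360, minus strand, ENSMUSG00000032440), binds the ligand and was the scarcer of the pair. It stood at 7.84, 7.61 and 7.05 TPM in chloride and 7.61, 8.15 and 8.01 TPM in propionate, with propionate 4 and 5 above every chloride library. For this gene the log2 difference was 0.07 (SE 0.08, limma adjusted p = 0.936).

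Tgfbr1 exceeded Tgfbr2 by 3.38 to 3.84 times in TPM in each of the 6 libraries. By depth over coding exons the ratio was lower, 1.74 to 2.46, where Tgfbr2 reached 11.4 to 15.3 in TPM units by that measure and Tgfbr1 26.6 to 31.1. The co-receptor Tgfbr3, on chromosome 5 (107106570 to 107289629, minus strand, ENSMUSG00000029287), had 4 transcript models and coverage on 0 of them. Such a 0 may mean that the estimate failed or that the level was low.

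The receptor-regulated Smad3 and the inhibitory Smad7 varied little between libraries. Smad3, on chromosome 9 (63646767 to 63757994, minus strand, ENSMUSG00000032402), was measured at 8.13, 7.16 and 7.88 TPM in chloride and 7.87, 8.27 and 8.26 TPM in propionate, a log2 difference of 0.07 (SE 0.08, limma adjusted p = 0.936). Its groups overlapped, with chloride 2 lowest. Smad7, on chromosome 18 (75367529 to 75395935, plus strand, ENSMUSG00000025880), was measured at 20.5, 19.8 and 20.9 TPM in chloride and 21.5, 20.3 and 20.7 TPM in propionate. Its highest library was 1.09 times its lowest, the narrowest range of the 9 tested members. The log2 difference was 0.03 (SE 0.06, limma adjusted p = 0.954), and its 95% interval ran from -0.11 to 0.17, a fold of 0.926 to 1.13. A change of this pathway target beyond that fold lay outside the interval.

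Smad4, the partner shared by all receptor-regulated Smads, lies on chromosome 18 (73639009 to 73703780, minus strand, ENSMUSG00000024515). It was measured at 55.4, 51.0 and 47.5 TPM in chloride and 58.0, 46.9 and 47.8 TPM in propionate, and library 1 was the highest in both groups. This gave a log2 difference of -0.01 (SE 0.10, limma adjusted p = 0.990). By depth over coding exons Smad4 stood at 54.9, 48.2 and 55.2 in chloride and 60.9, 52.7 and 53.8 in propionate, in TPM units, a log2 difference of 0.08.

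Smad2, on chromosome 18 (76241580 to 76310963, plus strand, ENSMUSG00000024563), was the member whose libraries differed most. Its level was 27.4, 36.4 and 18.8 TPM in chloride and 34.5, 43.7 and 24.2 TPM in propionate. Propionate 4 was 2.32 times chloride 3, and both groups spread widely. The means were 27.5 ± 8.79 TPM and 34.2 ± 9.78 TPM (SD, n = 3), a log2 difference of 0.31 (SE 0.28, limma adjusted p = 0.931). Without chloride 3 the difference was 0.07, without chloride 2 or propionate 5 it was 0.53, and with libraries weighted by their quality it was -0.13.

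The Smad2 locus carried 7 reference and 5 assembled models, and the libraries divided their TPM between them in different ways. The protein-coding model of 3138 nt, ENSMUST00000091831, ends its last exon early. It held 9.76, 15.3 and 0 TPM in chloride and 18.6, 25.6 and 4.98 TPM in propionate. The models with the long last exon, 9654 to 10086 nt where they averaged at least 0.5 TPM, held 16.7, 14.1 and 18.7 TPM in chloride and 14.9, 12.1 and 18.1 TPM in propionate. Chloride 3 and propionate 5, the libraries of lowest Smad2 TPM, gave 99.2% and 74.9% of it to the long models, and propionate 4, the highest, gave 27.7%.

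The read depth over the coding exons of Smad2 did not follow the summed TPM. In TPM units it was 57.6, 57.3 and 50.3 in chloride and 59.1, 60.7 and 58.0 in propionate, so that the highest library was 1.21 times the lowest. The propionate libraries lay above the chloride libraries by this measure, with a log2 difference of 0.11 and an exact two-sided permutation p of 0.1, the smallest possible. Coding-exon depth was chosen after seeing the data and computed for the 10 members alone. The share of all genes whose groups did not overlap by it is therefore not known. Estimated reads over the whole gene, 8300 to 11060 per library, gave a log2 difference of 0.07 with limma-voom. Measured over coding exons, Smad2 (mean 57.2) and Smad4 (mean 54.3) had overlapping levels, with Smad4 over Smad2 at 0.841 to 1.10 across the libraries. Smad2 exceeded Smad3 by 7.73 to 11.3 times in coding depth and by 2.39 to 5.29 times in TPM.

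The last exon of Smad2 shows where the models part. The bases shared by the short and long ends, 1496 nt of the last exon, had a mean depth of 59.4 to 170 reads per base across the libraries. The 6737 nt beyond the short end had a steadier depth of 50.1 to 65.9. The far part stood at 62.4%, 47.0% and 99.96% of the near part in chloride and 41.6%, 32.6% and 76.5% in propionate, an order close to that of the long models' share of TPM. These depths are sums of the coverage that each model was given, so they are no separate measure of the long models' share. At Smad4 the models with a long last exon held less, 17.9% to 32.8% of its TPM.

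**Figure D3:**
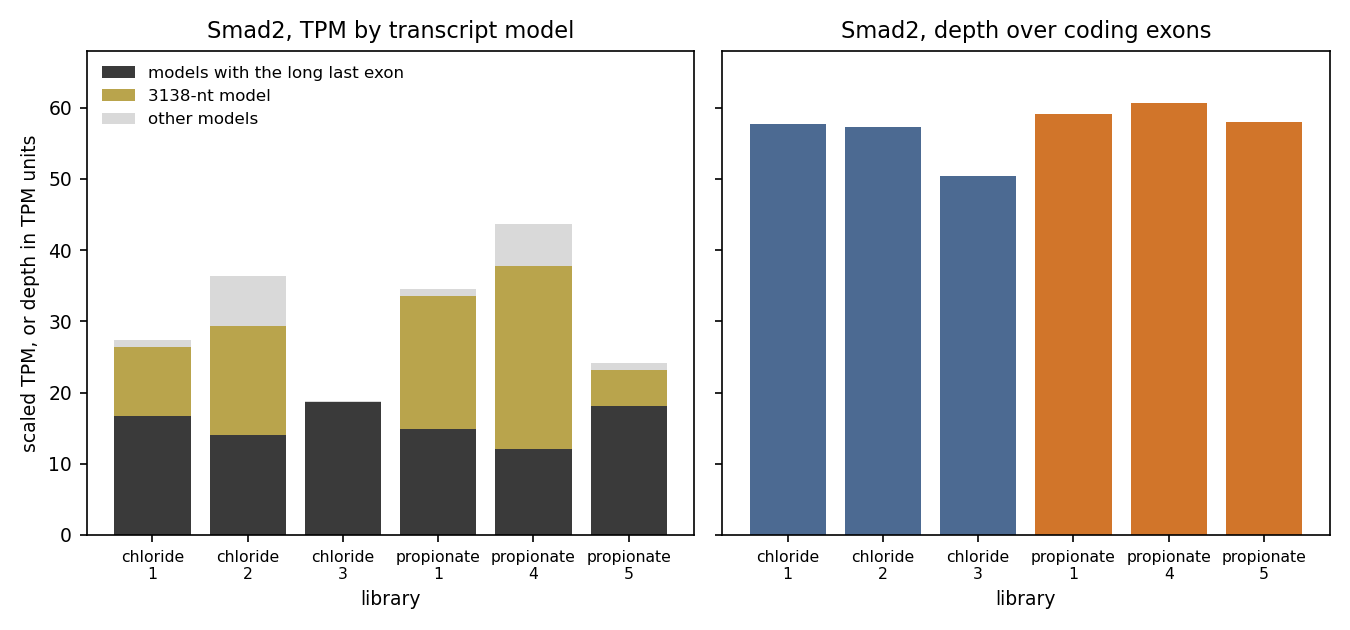
Left, scaled TPM of Smad2 in each library, stacked by models with the long last exon, the 3138-nt model and all other models. Right, depth over the coding exons in TPM units on the same axis, which varies 1.21-fold where the summed TPM varies 2.32-fold.

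No single transcript of the members passed the test either. The 10 members had 56 transcript models, of which 20 had a mean of at least 1 TPM and were tested. Of these, 0 passed an adjusted p of 0.05 with limma (lowest 0.862) and 0 had an unadjusted p under 0.05, against 0.0364% of all 35755 tested transcripts called. None of the 20 had groups that did not overlap, which 12.3% of all tested transcripts had. Tgfbr1 was the receptor with a pair of abundant models: the one with the 12 extra bases, ENSMUST00000007757, averaged 57.3% of its TPM and the one without, ENSMUST00000044234, 41.7%. Smad3 and Smad7 each had 1 leading model, with a mean of 95.8% and 92.5% of the gene.

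The 12 bases of Tgfbr1 shown above were used in part of its transcripts in every library. Models with them held 68.8%, 49.5% and 64.8% of the gene's TPM in chloride and 43.8%, 60.9% and 57.2% in propionate. The read depth over the 12 bases relative to the rest of the exon was 69.0%, 50.4% and 65.0% in chloride and 43.9%, 61.4% and 57.8% in propionate. This depth is the exon coverage given to the models with the 12 bases, so it is no separate measure of their use. The groups overlapped (exact permutation p = 0.4 for both measures), and propionate 1 used the longer form least.

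For the cassette exon of Tgfb2 the models and the depth ordered the libraries differently. The model that contains the 84 bases, ENSMUST00000195201, held 3.61%, 2.90% and 0.103% of Tgfb2 TPM in chloride and 38.4%, 1.26% and 5.13% in propionate. The propionate 1 value stood far above the other 5. The depth over the exon itself was 7.17, 3.01 and 0.976 reads per base in chloride and 4.74, 4.51 and 9.98 in propionate. Relative to the exon that follows, this was 21.8%, 6.01% and 3.36% in chloride and 16.4%, 9.29% and 16.9% in propionate, and here propionate 1 lay below chloride 1 and propionate 5 (exact permutation p between salts = 0.6). Relative to the exon before it, the depth was 50.7%, 26.0% and 6.78% in chloride and 43.1%, 36.0% and 75.9% in propionate, so that in propionate 1 the figure was near the model's share and in the other libraries above it. A short non-coding model, ENSMUST00000193640, overlaps the exon at 0.409 TPM on average, and its reads count in that depth.

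The cassette exon of Tgfbr2 was present in the model that held most of the gene's TPM. ENSMUST00000061101, which contains the 75 bases, held 76.1%, 78.7% and 82.3% of TPM in chloride and 95.3%, 67.7% and 76.8% in propionate. The exon's depth was 25.9%, 31.9% and 20.004% of the exon that follows in chloride and 60.02%, 30.7% and 50.1% in propionate. Propionate 1 was highest by both measures, and the groups overlapped (exact permutation p = 0.2 for the depth and 0.9 for the share of TPM). Depth was low over this end of the transcript as a whole: the exon reached 74.2% to 219% of the depth of the exon before it.

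Exon 3 of Smad2 (90 bases in the coding sequence, 76286860 to 76286949) had a depth close to or above that of the next exon in all 6 libraries. It is background knowledge that this exon adds a loop to the DNA-binding domain, and that the Smad2 protein without it can bind DNA directly. Models with the exon held 61.5%, 54.7% and 99.2% of Smad2 TPM in chloride and 45.7%, 39.8% and 77.6% in propionate. The 3138-nt model with the short last exon is also the model without this exon, and the models with the long last exon contain it. These shares and those of the long last exon therefore largely repeat the same division of TPM between models. Its depth was 95.7%, 100.5% and 155% of the exon that follows in chloride and 95.4%, 110% and 112% in propionate (exact permutation p between salts = 0.8). The relative depth was highest in chloride 3, where models with the exon held the largest share of TPM. In propionate 4, where they held the smallest share, it was 110%. This depth is a sum of the coverage given to each model, so it is not independent of the division between models. In all 6 libraries it still stood above the share of TPM in models with the exon. Which of these measures is nearer to the exon's use was not tested.

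**Figure D4:**
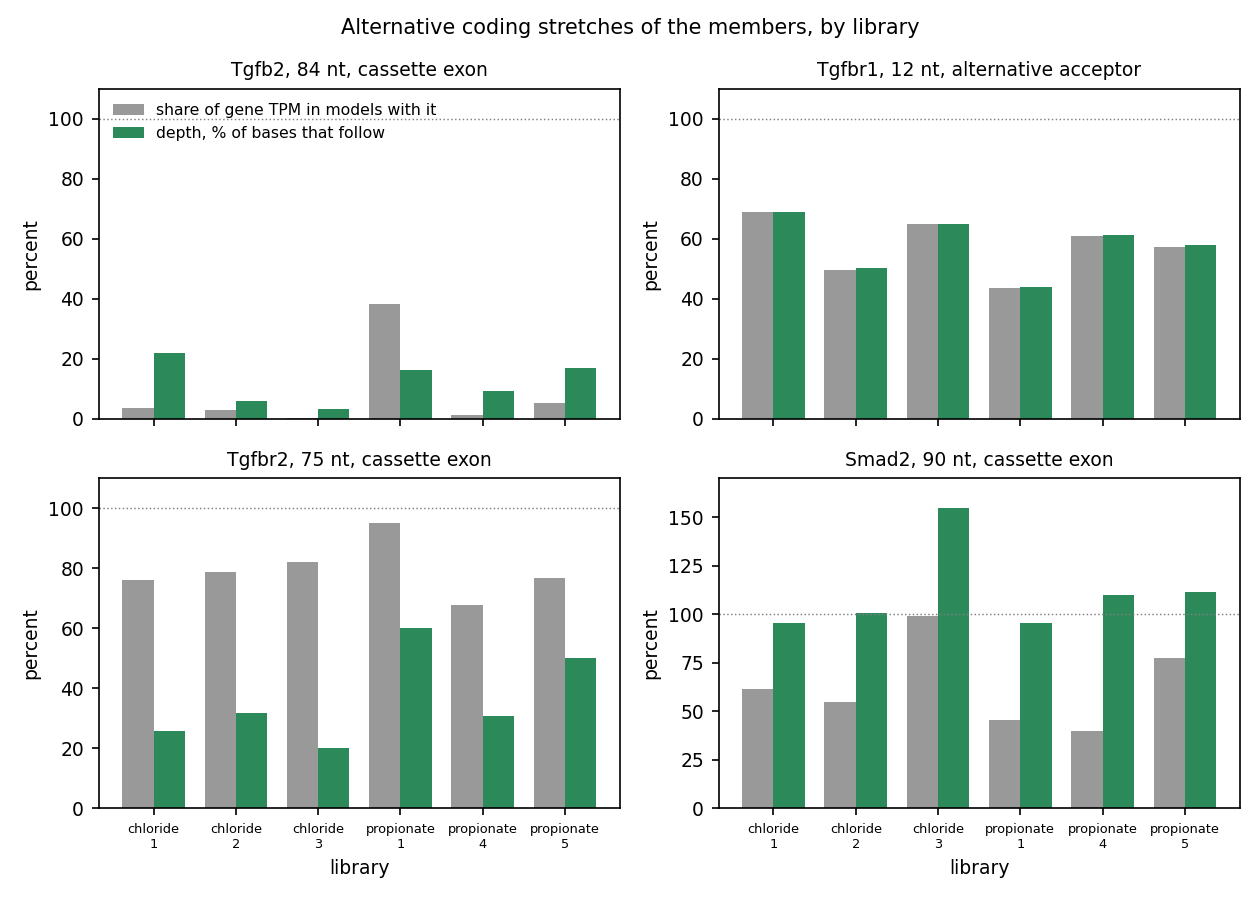
For each alternative coding stretch and library, the share of the gene's TPM in models that contain it (grey) and its read depth as a percent of the bases that follow (green). For Tgfbr1 both measures come from the same division of the exon's reads. The Tgfb2 model share in propionate 1 is 38.4%, where the exon's depth is 16.4% of the exon after it and 43.1% of the exon before it.

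The rest of the pathway was read from 6 lists of 129 further genes, 83 of them tested, of which 0 passed the adjusted threshold. An unadjusted p under 0.05 was found for 5 of the 83, against 5.11% of all genes. Groups did not overlap for 7 of the 83 higher and 4 lower in propionate, against 5.27% and 6.49% of all genes. By sign 44 were higher and 39 lower, and the median log2 difference was 0.0097. The lowest limma adjusted p in any list was 0.915.

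Other ligands of the family mostly fell under the filter on low values. Of 29 activins, bone morphogenetic proteins, growth and differentiation factors and relatives, 4 were tested and 8 were listed at 0 in every library, Bmp2, Bmp4 and Bmp7 among them. Summed over the 29, their level was 24.1 to 25.8 TPM in chloride and 24.02 to 26.7 TPM in propionate, above the sum of the 3 TGF-beta ligands. Gdf15, a stress-induced factor, averaged 8.29 TPM with a log2 difference of 0.13 (SE 0.14), Gdf11 8.01 TPM with -0.09 (SE 0.07), and Lefty1, an inhibitor of nodal signalling, 4.95 TPM with -0.21 (SE 0.13). The 4 tested ligands had 1 sign higher and 3 lower, with a median of -0.06.

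Receptors of the wider family differed widely in level. The bone morphogenetic protein receptor Bmpr1a averaged 62.6 TPM, above Tgfbr1 in every library, and Acvr1 and Bmpr2 averaged 37.8 and 33.1 TPM. Acvrl1, a type I receptor best known in blood vessels, was measured at 14.3, 14.8 and 15.5 TPM in chloride and 13.5, 14.0 and 14.1 TPM in propionate, which did not overlap (log2 difference -0.09, SE 0.07, limma adjusted p = 0.917). Acvr2b averaged 1.27 TPM with a difference of -0.31 (SE 0.19). Of 11 receptors 7 were tested, with 3 higher by sign and 4 lower and a median of -0.05. Among the other Smads, 3 of 4 were tested: Smad5 at 30.1 TPM, Smad1 at 10.9 TPM and Smad9 at 1.02 TPM, with log2 differences of -0.01, -0.02 and -0.06.

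Genes that hold latent ligand or release it also differed widely in level. Of 21, 13 were tested, with 8 higher by sign and 5 lower and a median of 0.02. Among the highest, the integrin subunit Itgb1 averaged 1799 TPM, the protease Mmp2 384 TPM and thrombospondin Thbs1 302 TPM, with log2 differences of -0.03, 0.02 and 0.02. Itgb5, a partner of the integrin subunit that binds latent TGF-beta, stood at 55.5 TPM with 0.11 (SE 0.07), and the latent TGF-beta binding protein Ltbp3 at 19.8 TPM with -0.16 (SE 0.12).

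Of 35 regulators of the receptors and Smads, 31 were tested, 14 of them higher by sign and 17 lower, with a median of -0.0056, and Foxh1, Nog and Grem1 were listed at 0. The most abundant were Strap at 271 TPM, Cd109 at 260 TPM and Fkbp1a at 100.5 TPM, with log2 differences of 0.08, -0.01 and -0.13. Strap binds the receptors and Smad7, Cd109 is a co-receptor and Fkbp1a holds Tgfbr1 inactive. Nedd4l, a ubiquitin ligase that acts on activated Smad2 and Smad3, was measured at 21.04, 21.7 and 22.8 TPM in chloride and 16.7, 16.4 and 19.3 TPM in propionate. The groups did not overlap, but the log2 difference of -0.31 (SE 0.08) had an adjusted p of 0.915 with limma and was -0.01 from estimated reads with voom. The locus holds another gene entry of the same name, so reads could be divided between them.

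Targets of the pathway lay mostly on the higher side of 0 without passing the test. Their list was written from general knowledge but with earlier results of these data known, so its counts may not be independent of them. Of 36, 31 were tested, 24 by sign higher and 7 lower, with a median of 0.10 against 0.0057 for all genes. Groups lay wholly higher in propionate for 7 of the 31, against 5.27% of all genes, and wholly lower for 0, against 6.49%. By sign 8067 of all genes were higher and 7500 lower. Among the 7 wholly higher targets were Ccn2, Junb, Pmepa1, Id3, Lif and Spsb1, and the last 3 are named after their values were seen. Id3 had a log2 difference of 0.32, and of 0.10 without propionate 5. Lif, a low gene, reached 1.58 TPM in chloride 3 and 1.61 TPM in propionate 1. The groups of Id3 and Lif overlapped with TPM as deposited and with quantile normalization, and those of Spsb1 with TPM as deposited. The split depends on the scaling: with TPM as deposited 16 were higher and 15 lower, 2 of the 31 lay wholly higher and 1 wholly lower, where 1.07% and 14.6% of all genes did. The median was then 0.011 and that of all genes -0.083. With quantile normalization 3 lay wholly higher, against 4.43% of all genes. Without propionate 1, at 3 against 2 libraries, 15 lay wholly higher, against 14.5% of all genes.

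Ccn2, a matrix protein also induced by mechanical cues, stood at 553, 583 and 566 TPM in chloride and 609, 622 and 664 TPM in propionate, a log2 difference of 0.15 (SE 0.06, limma adjusted p = 0.915). Junb, a subunit of the transcription factor AP-1, stood at 81.4, 93.1 and 86.7 TPM in chloride and 105, 98.6 and 97.0 TPM in propionate, with 0.20 (SE 0.07). Pmepa1, a target that also restrains the Smads, stood at 20.5, 21.004 and 20.01 TPM in chloride and 23.1, 22.4 and 22.8 TPM in propionate, with 0.15 (SE 0.06). These 3 genes lay higher in each propionate library than in any chloride library, with every limma adjusted p at 0.915. With TPM as deposited the groups overlapped for Ccn2 (0.057) and Pmepa1 (0.053), and with quantile normalization for Ccn2 (0.033). Timp3, an inhibitor of matrix proteases and the most abundant of the targets at 2284 TPM on average, had 0.11 (SE 0.07) and overlapping groups.

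**Figure D5:**
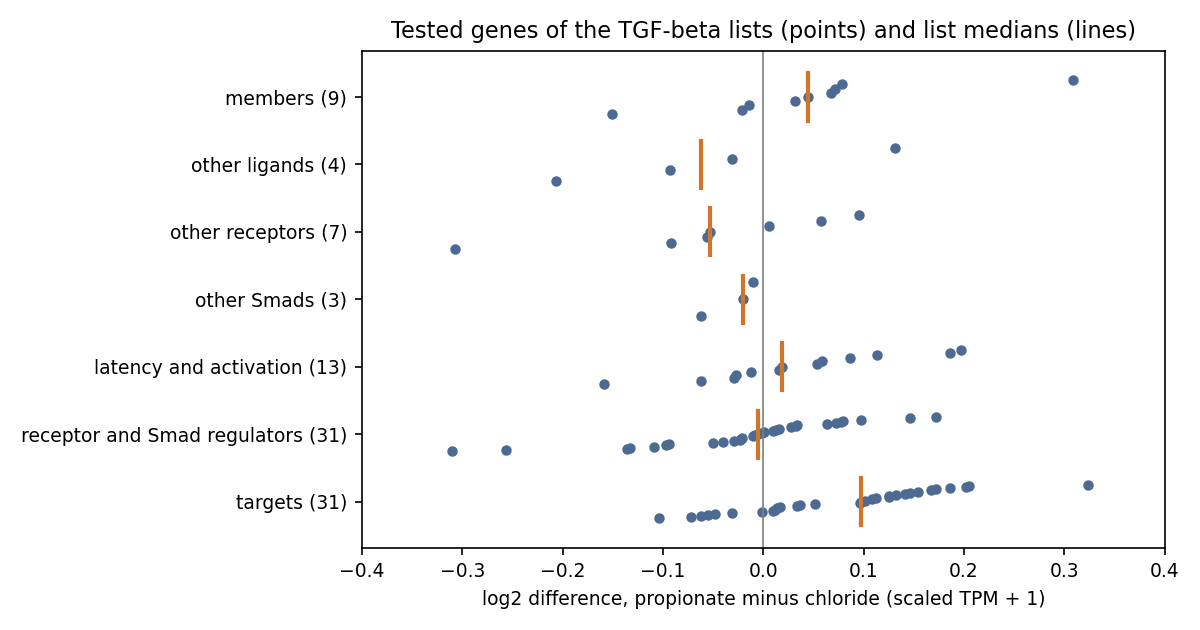
Log2 difference between salts of each tested gene (points) by list, with the list median (line) and the number tested in parentheses. The targets have a median of 0.10 and the members 0.04; no point passed the adjusted threshold.

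The 6 libraries held 9.15 to 11.3 Gb of counted bases, and chloride 3 and propionate 1 had fewer covered transcripts, 71452 and 71192, than the other 4 with 81178 to 82370. Smad2 was at its lowest in chloride 3 and the model with the Tgfb2 cassette exon at its highest in propionate 1, and the part of the lower transcript coverage in these values was not tested. Markers of glioma, astrocytes and neural stem cells summed to 3418 to 3834 TPM in chloride and 3682 to 4058 TPM in propionate. Most of this was Vim, at 3121 TPM on average, followed by Nes and Cspg4, and Sox2 averaged 54.0 TPM. Aldh1l1, Olig2 and Fabp7 of the same list were low, at 2.35, 1.51 and 1.39 TPM on average. Of the 10 markers 8 were tested, and Gfap and Slc1a3 fell under the filter of 1 TPM. Among other cell types, 10 microglia and macrophage markers summed to 4.72 to 6.33 and 5.14 to 6.39 TPM, with P2ry12, Itgam, C1qa and Adgre1 at 0. Endothelial markers summed to at most 0.360 TPM and lymphoid markers to at most 0.251 TPM, with Kdr and Cd3e at 0. Neuron markers summed to 116 to 119 and 112 to 124 TPM through Tubb3 and Map2, with Rbfox3 and Snap25 at 0. Fibroblast and pericyte markers summed to 292 to 305 and 270.1 to 300.0 TPM, mainly Col3a1 and Col1a1. Of these 8 markers 4 were tested, 1 higher by sign in propionate and 3 lower. The 1 higher was Pdgfrb, a pericyte marker near the filter of 1 TPM. It stood at 1.12, 1.175 and 1.046 TPM in chloride and 1.97, 1.183 and 1.23 TPM in propionate (log2 difference 0.21, SE 0.18, limma adjusted p = 0.930). Its groups did not overlap, and 5.27% of all genes lay wholly higher in propionate.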

How the data were processed

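Per the labels' protocols, the 6 GL261 libraries were made with a stranded total RNA kit. HISAT2, StringTie, fastp, bcl2fastq and the build mm10 are named, per the submitters' processing notes. Per the file headers, StringTie 2.1.1 estimated 157296 shared transcript models (14805 of them assembled from reads) in each library. The deposited values are coverage, FPKM and TPM per transcript; no counts are among them, and for the strand setting the sources used here name no value. The authors' TPM sum to 1000000 per library, so depth was taken from the ratio of deposited coverage to FPKM.

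TPM were summed per gene, without genes under 200 nt, scaled by the median ratio (factors 0.966 to 1.09) and tested as log2(TPM + 1) with limma 3.58.1 in R 4.3.3 (variance trend, two-sided, threshold 0.05) for a mean of at least 1 TPM. Depth over coding exons is the coverage summed over models, divided into TPM units; this measure was chosen after seeing the data. Estimated reads used a read length of 101 bases. The test was checked on simulated data. Python 3.11.15, pandas 2.3.3, numpy 2.4.6 and matplotlib 3.10.9 were used.

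In each list the genes past the threshold, the 3 highest and the 2 of smallest p were named. A gene that this rule would name is not reported here. The members, lists, tests and alternatives were chosen with earlier results of these data known. Sequences came from GENCODE M21 transcripts of the same build.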

Additional observations from a re-analysis of the deposited data

How the results depend on the processing

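The number of members called was 0 in all 16 alternative settings that tested all genes, and the number of member transcripts called was 0 in each setting where transcripts were tested. Over all genes, those called higher numbered 0 with no filter on the mean level, 0 with limma-voom on estimated reads, 2 with library weights, 1 to 3 when each library was left out in turn (3 without propionate 1), and 5 with chloride 3 and propionate 1 left out together, where 2 were called lower. Of 151 member values under 17 settings, 130 kept their direction, 1 moved (Tgfbr2, 0.14 by coding-exon depth) and 20 changed sign. Values with a test were compared by their sign and by whether they passed the threshold, without regard to their error. Of the 142 values with a test 0 passed the threshold, and the lowest limma adjusted p was 0.423. Tgfb1 was lower in propionate in every setting that gave it a value (a mean of at least 5 TPM left it out), between -0.24 and -0.08. With TPM as deposited the log2 difference was -0.0019 for Tgfb3, -0.050 for Tgfbr1, -0.015 for Tgfbr2, -0.019 for Smad3 and -0.061 for Smad7, where the median of all genes was -0.083. Library weights gave -0.028 for Tgfb3 and -0.13 for Smad2, and coding-exon depth gave -0.00029 for Tgfb3 and 0.080 for Smad4. Smad4 was 0.00059 with no filter, 0.056 with limma-voom and -0.12 with library weights. With chloride 3 and propionate 1 left out, Tgfb3 was -0.032, Tgfb2 -0.17 and Smad4 -0.17 (limma unadjusted p = 0.047, adjusted p = 0.821), the only member value with an unadjusted p under 0.05 in these settings. Leaving out each library in turn gave -0.11 to 0.084 for Tgfb2, -0.024 to 0.13 for Tgfb3, -0.0080 to 0.12 for Tgfbr1, -0.11 to 0.042 for Smad4 and 0.07 to 0.53 for Smad2. The causes of these changes were not tested. No paired analysis was possible because the groups share only the number 1 in their titles. The files give no counts, so counting error of low members such as Tgfb1 could not be separated from the spread between libraries.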
